A study of Mus musculus with 12 samples.

Results

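Loss of Ezh2 in XY germ cells was described by comparing 3 male Ezh2 conditional knockout embryos (CKO) with 4 male control embryos (Ctrl) at E13.5 (embryonic day), over every gene that passed a filter on low counts. These 7 libraries are part of a series of 12. It also holds germ cells of 2 female CKO and 3 female Ctrl embryos of the same age and strain. The female libraries entered the low-count filter, the scaling and the estimate of spread behind the male test. Their own effect was set beside the male one. Each library held the primordial germ cells sorted from 1 embryo on a C57BL/6 background, and PCR gave the embryo's genotype. The 3 CKO libraries are numbered CKO 1 to CKO 3 and the 4 control libraries Ctrl 1 to Ctrl 4, and the numbers do not tie a CKO embryo to a Ctrl embryo. The labels name no Cre driver, no control genotype, no deleted exons and no litters, so the share of cells that lost Ezh2 in a CKO embryo cannot be told from them. The table holds 37991 gene identifiers, and 16708 of them were tested.

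EZH2 is the main catalytic subunit of Polycomb repressive complex 2 (PRC2), which methylates lysine 27 of histone H3, a mark of repressed genes. Polycomb repressive complex 1 (PRC1) reads that mark through its CBX subunits and also modifies histone H2A. In the fetal testis at this stage, germ cells stop dividing, lose most of their DNA methylation before it is laid down again, and begin a male programme that includes NANOS2 and the piRNA pathway. No histone mark was measured here, and every value below is a messenger RNA level or a difference between such levels.

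Levels are given as CPM, which are read counts scaled to a common library size after TMM normalisation. Male libraries held between 26180685 and 35299206 counts, and 1 CPM corresponded to between 24.2 and 34.2 counts. The germ cell markers Dazl, Ddx4, Pou5f1, Dppa3 and Sall4 were present in all 7 libraries, and the 10 germ cell markers summed to between 6070 and 6580 CPM in CKO and between 6030 and 6670 CPM in Ctrl. The fetal Leydig cell markers summed to at most 11.4 CPM in any male library, the macrophage markers to at most 5.81 CPM and the interstitial markers to at most 14.0 CPM. The Sertoli cell sum (166 to 186 CPM in CKO, 176 to 201 CPM in Ctrl) was mostly Dmrt1, which germ cells also express, and the endothelial sum (235 to 260 against 164 to 334 CPM) was mostly Pecam1, also a germ cell gene. The red blood cell sum stood at 20.4 CPM in CKO 1 and at most at 1.43 CPM in the other male libraries. Of all marker genes tested, only Krt18, a keratin on the mesonephric list, was called.

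The control embryos differed more from each other than the CKO embryos did. In a principal component analysis of the 7 male libraries, the first component carried 35.8% of the variance and set Ctrl 1 (-44.3) apart from Ctrl 2 (54.3), with all 3 CKO libraries near its centre (-2.36 to -0.62). The second component carried 28.2% and separated CKO (22.7 to 32.2) from Ctrl (-23.9 to -19.6). The correlation of log2 CPM across genes was lowest of all pairs between Ctrl 1 and Ctrl 2 (0.948), and between 0.984 and 0.988 for the 3 pairs of CKO libraries. Each library is a bulk sample, so fewer cells of a type and less RNA per cell cannot be told apart. No pair of libraries agreed within counting noise, so all 7 were counted as separate samples.

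The targeted gene was lower in each CKO library than in every Ctrl library, but its change did not pass the test. Ezh2 messenger RNA stood at 85.8, 82.4 and 85.0 CPM in CKO 1 to CKO 3, and at 96.6, 144, 129 and 119 CPM in Ctrl 1 to Ctrl 4. The 2 groups did not overlap, with Ctrl 1 the lowest control. The log2 fold change was -0.53 (SE 0.13, n = 3 and 4), with an adjusted p of 0.0527 in edgeR's quasi-likelihood test with Benjamini-Hochberg adjustment over all genes tested. Without Ctrl 1 the log2 fold change was -0.63 with an adjusted p of 0.0162. Reads from exons outside the deleted part still count toward Ezh2, so this level does not measure the functional transcript.

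No PRC2 gene was called among the 13 tested, and their median log2 fold change was -0.15, against -0.02 over all genes tested. Ezh1, which encodes the alternative catalytic subunit, stood at 84.8, 95.6 and 82.0 CPM in CKO and at 112, 81.9, 88.3 and 95 CPM in Ctrl, and the groups overlapped (log2 fold change -0.11, adjusted p = 0.695, edgeR). Eed, which binds the H3K27me3 mark, had a log2 fold change of 0.18 (adjusted p = 0.404, edgeR). Suz12, which holds the complex together, had one of -0.20 (adjusted p = 0.434, edgeR). Rbbp4, a histone chaperone of this and other complexes, did not follow the genotype: it stood at 672 CPM in CKO 1, 648 in Ctrl 1 and 680 in Ctrl 2, and between 253 and 415 CPM in the other 4 male libraries. None of the 15 enzymes on the list for H3K27 and H3K9 methylation was called. A negative log2 fold change was seen in 13 of these 15, against 8613 of all 16708 genes, with a median of -0.27. Groups did not overlap in 26.7% of them, against 15% of all genes. Their median transcript length was 4853 bases, against 3149 bases over all genes tested.

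Across the transcriptome, 284 genes, or 1.7% of the 16708 tested, were called at an adjusted p under 0.05 (edgeR). Of these, 201 genes (1.2%) were higher in CKO and 83 (0.497%) were lower. All 284 had groups that did not overlap in CPM, which held for 15% of all genes tested. The median log2 fold change was 1.14 among the higher genes and -0.64 among the lower ones. Without CKO 2 the test called 36 genes, without CKO 3 it called 48, and without Ctrl 3 it called 85, so the total rests on these libraries. Of 77 called genes named by rule, 27 were still called without CKO 2, 33 without CKO 3 and 44 without Ctrl 3. In contrast, 502 genes were called without Ctrl 2, which stands apart on the first component, and 278 without Ctrl 1. A fit of the 7 male libraries alone called 63 genes, against 284 in the fit of all 12.

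Called genes were counted by their mean level in Ctrl. That mean is also the base of the fold change, and genes near 0 in Ctrl have little room to be called lower, so these counts are a description. Of 3820 genes between 1 and 10 CPM in Ctrl, 94 rose (2.46%) and 9 fell (0.236%). Of 2833 genes above 100 CPM, 6 rose (0.212%) and 25 fell (0.882%). Among the 4147 genes under 1 CPM, 31 rose and 3 fell. 4 of the higher genes had no count in any Ctrl library, and these were Cd37, Atp2c2, Acan and 1700012B07Rik, named here after their values were seen. Each had between 15 and 18 counts over the 3 CKO libraries, and against a floor of 3 counts over the 4 Ctrl libraries (0.0261 CPM) they were at least 6.56-fold to 7.90-fold higher.

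**Figure D1:**
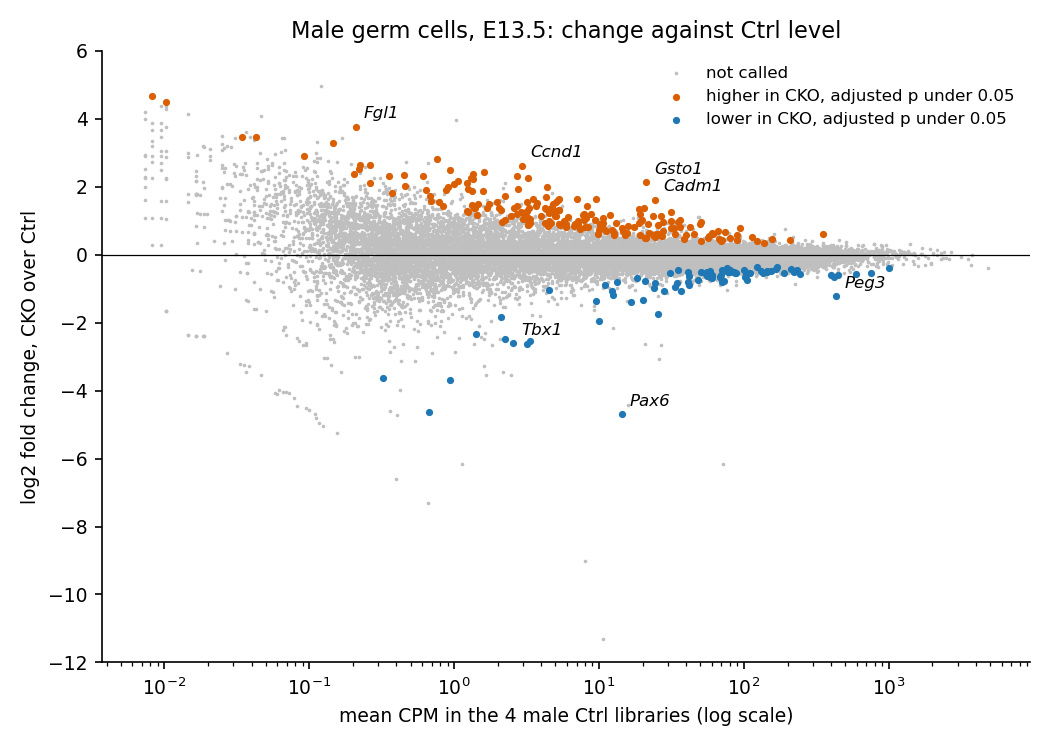
Change in male CKO germ cells against the level in male controls. The x axis is the mean CPM of the 4 Ctrl libraries on a log scale, the y axis is the log2 fold change of CKO over Ctrl, each point is 1 gene tested, and colours mark the 201 genes called higher and the 83 called lower; genes with no count in Ctrl (64) are not drawn. Called rises lie mostly left of 100 CPM and called falls mostly right of 10 CPM, with Pax6 the lowest of the labelled genes at -4.69.

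A set of 13 called genes held in each of the 17 alternative analyses that gave them an adjusted p, 11 of them higher and 2 lower. The higher ones were Gsto1, Cadm1, Dgat2, Fgl1, F2r, Baz1a, Umps, Sh3bgrl2, Fam111a, Ephx2 and the uncharacterised 1190002N15Rik, and the lower ones were Pax6 and Peg3. Leaving out any of the 7 libraries in turn kept 29 of the 284 genes, 25 higher and 4 lower.

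Gsto1, an omega-class glutathione transferase, had the smallest p of all. It stood at 80.5, 102 and 95.9 CPM in CKO 1 to CKO 3 and at 22.1, 21.1, 24.0 and 17.4 CPM in Ctrl 1 to Ctrl 4. The lowest CKO value was above 3 times the highest Ctrl value, and the fitted difference was 4.39-fold (log2 fold change 2.13, SE 0.15, adjusted p = 3.49e-05, edgeR). Gsto2, its neighbour on chromosome 19, stood at 10.4, 14.3 and 13.2 CPM against 6.01, 3.14, 4.90 and 4.92 CPM. Its groups were also apart, and it rose 2.65-fold (log2 fold change 1.41, SE 0.22, adjusted p = 0.0102, edgeR).

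Several other rises in this set were of genes for adhesion, lipid and nucleotide metabolism. Cadm1, an immunoglobulin-family adhesion molecule, stood at 70.9, 71.5 and 82.4 CPM in CKO and between 20.1 and 27.5 CPM in Ctrl, a rise of 3.07-fold (adjusted p = 3.56e-05, edgeR). Dgat2, which makes triglycerides from diglycerides, was nearly flat within each group, at 53.9, 54.6 and 52.6 CPM against 22.7, 19.6, 23.0 and 17.1 CPM. It rose 2.60-fold (adjusted p = 0.000542, edgeR). Umps, which makes uridine monophosphate, rose 1.73-fold from a Ctrl range of 86.2 to 108 CPM to a CKO range of 153 to 180 CPM.

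F2r, the thrombin receptor, stood at 23.1, 20.5 and 21.6 CPM in CKO and at 8.47, 7.51, 5.06 and 7.04 CPM in Ctrl, and rose 3.09-fold. Fgl1, a secreted fibrinogen-like protein best known from liver, was close to silent in Ctrl (0.117, 0.165, 0.364 and 0.189 CPM) and stood at 2.67, 2.77 and 3.27 CPM in CKO. That rise of 13.7-fold had an adjusted p of 0.00167 (edgeR). Ephx2, a soluble epoxide hydrolase that acts on fatty acid epoxides, was the tightest of the set within CKO, at 9.95, 9.85 and 9.80 CPM against 2.97 to 4.96 CPM in Ctrl. Baz1a, a chromatin remodelling subunit, rose 2.29-fold from a range of 7.18 to 11.5 CPM to a range of 19.4 to 20.7 CPM, while its paralogue Baz1b, named after its value was seen, fell (log2 fold change -0.45, adjusted p = 0.0416, edgeR).

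Sh3bgrl2, a small SH3-binding protein, stood at 83.3, 99.7 and 92.0 CPM in CKO and at 45.1, 55.8, 56.1 and 40.8 CPM in Ctrl. Fam111a, a protease that restricts viral replication, stood at 14.2, 17.8 and 18.0 CPM against 4.06, 5.98, 5.86 and 5.38 CPM. Both had an adjusted p of 0.00545 (edgeR), with log2 fold changes of 0.89 and 1.65. Outside this set, Chst8, a carbohydrate sulfotransferase, stood at 7.28, 5.93 and 7.74 CPM against 0.993, 1.49, 1.79 and 1.14 CPM, and Ddx43, a germline RNA helicase, at 33.3, 36.5 and 38.2 CPM against 19.3, 17.3, 18.6 and 20.1 CPM. Their log2 fold changes were 2.37 and 0.93, and neither gene's groups overlapped.

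**Figure D2:**
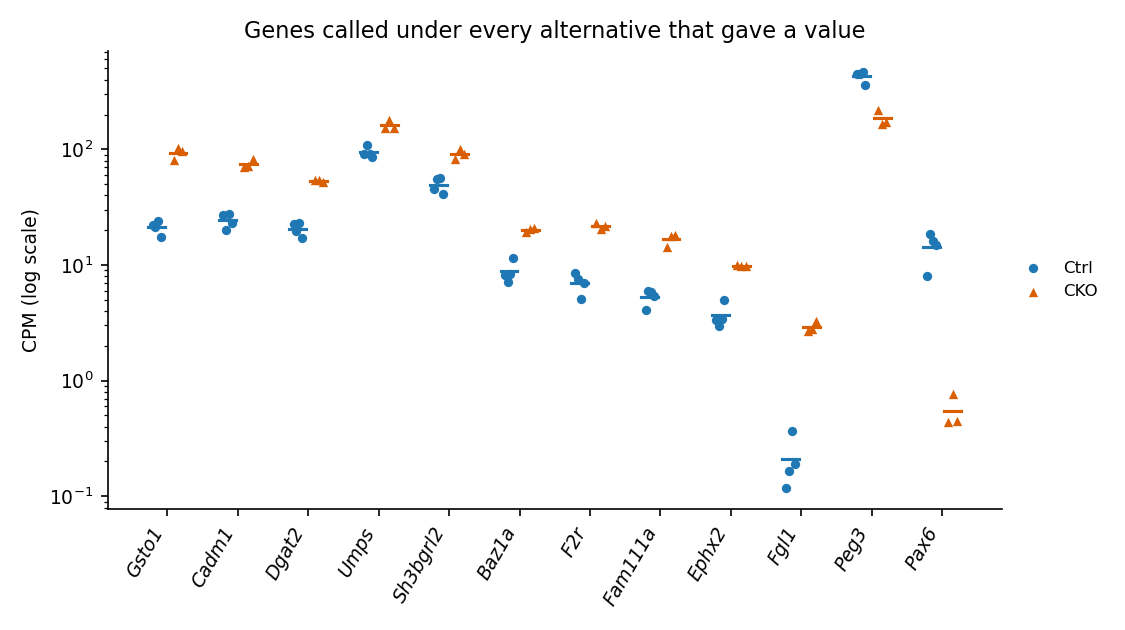
Level of 12 genes called under every alternative that gave them an adjusted p, in each male library. The y axis is CPM on a log scale, circles are the 4 Ctrl and triangles the 3 CKO libraries, and short lines are group means; the uncharacterised 1190002N15Rik is not drawn. In all 12 genes the CKO and Ctrl values do not overlap, and only Peg3 and Pax6 are lower in CKO.

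The promoters of 6 called genes are printed to show the sequence at the start of genes that moved in opposite directions and of genes that moved together. They come from RefSeq on GRCm38.p6, run from 250 bases before to 50 bases after the gene's start, and are matched by symbol; the counts were made on mm9. Pax6 and Gsto2 have 2 starts in that table and the first listed is shown. The regions are chr2:105668646-105668945 (plus strand) for Pax6, chr19:47854723-47855022 (plus) for Gsto1, chr19:47865295-47865594 (plus) for Gsto2, chr11:119040864-119041163 (minus) for Cbx8, chrX:86256170-86256469 (minus) for Mageb4 and chr7:24672001-24672300 (minus) for Tex101. Capitals mark CG dinucleotides, the sites of DNA methylation in mammals.
Pax6: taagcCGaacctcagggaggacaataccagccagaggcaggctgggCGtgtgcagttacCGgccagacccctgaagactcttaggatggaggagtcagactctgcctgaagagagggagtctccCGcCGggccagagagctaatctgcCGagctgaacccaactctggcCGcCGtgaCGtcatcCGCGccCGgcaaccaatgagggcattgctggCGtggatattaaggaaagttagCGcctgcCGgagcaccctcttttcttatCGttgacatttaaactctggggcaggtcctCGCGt
Gsto1: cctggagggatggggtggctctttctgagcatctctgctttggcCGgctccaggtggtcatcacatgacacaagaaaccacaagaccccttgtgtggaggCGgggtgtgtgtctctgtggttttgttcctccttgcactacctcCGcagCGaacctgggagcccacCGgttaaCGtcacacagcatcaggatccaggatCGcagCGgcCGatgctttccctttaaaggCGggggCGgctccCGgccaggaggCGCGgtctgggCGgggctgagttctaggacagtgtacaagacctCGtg
Gsto2: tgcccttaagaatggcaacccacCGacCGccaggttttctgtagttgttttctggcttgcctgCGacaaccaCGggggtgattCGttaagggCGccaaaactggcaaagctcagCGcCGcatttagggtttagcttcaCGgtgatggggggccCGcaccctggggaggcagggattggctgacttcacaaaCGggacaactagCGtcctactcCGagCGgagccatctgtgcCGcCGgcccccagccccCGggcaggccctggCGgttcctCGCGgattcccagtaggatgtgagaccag
Cbx8: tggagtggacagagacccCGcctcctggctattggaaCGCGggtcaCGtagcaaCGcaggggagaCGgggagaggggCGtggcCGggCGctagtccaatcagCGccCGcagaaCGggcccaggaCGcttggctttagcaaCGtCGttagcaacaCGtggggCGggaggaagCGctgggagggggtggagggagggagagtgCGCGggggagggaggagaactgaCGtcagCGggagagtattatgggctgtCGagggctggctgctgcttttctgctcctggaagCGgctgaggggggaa
Mageb4: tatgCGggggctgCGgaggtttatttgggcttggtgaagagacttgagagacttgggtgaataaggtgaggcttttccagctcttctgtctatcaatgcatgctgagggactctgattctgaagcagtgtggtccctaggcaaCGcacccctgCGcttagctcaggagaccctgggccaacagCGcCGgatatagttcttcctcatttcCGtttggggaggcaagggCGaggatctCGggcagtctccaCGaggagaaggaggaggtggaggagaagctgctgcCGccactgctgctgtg
Tex101: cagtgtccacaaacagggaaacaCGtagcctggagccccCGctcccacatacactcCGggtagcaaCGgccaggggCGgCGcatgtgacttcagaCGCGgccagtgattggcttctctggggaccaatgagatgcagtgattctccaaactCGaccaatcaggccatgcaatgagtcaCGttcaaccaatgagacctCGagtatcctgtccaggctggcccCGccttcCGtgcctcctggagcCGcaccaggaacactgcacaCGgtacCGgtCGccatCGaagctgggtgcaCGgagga
These 300 bases held 18 CG dinucleotides in Pax6, 16 in Gsto1, 20 in Gsto2, 24 in Cbx8, 11 in Mageb4 and 19 in Tex101. Over 27025 genes with a promoter in the table, the median was 7 and the quartiles were 3 and 21, so all 6 lie above the median whether the gene rose or fell. The E-box CACGTG, searched on both strands, was present in Cbx8 and in 7.24% of all promoters. The sequence TCCCGC, searched on both strands as the core that E2F6-type factors bind, was present in Pax6 and Cbx8 and in 20% of all promoters. These are matches of letters, and no binding was measured.

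Pax6, a regulator of eye, brain and pancreas development, had the largest fall by fold among the named genes. Its level was 0.440, 0.763 and 0.447 CPM in CKO and 8.03, 18.4, 16.1 and 14.8 CPM in Ctrl. The groups were far apart, with Ctrl 1 the lowest control, and the difference was 25.9-fold (log2 fold change -4.69, SE 0.40, adjusted p = 0.000105, edgeR). Female CKO germ cells showed a log2 fold change of -6.60 for Pax6 in the same fit.

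Other developmental regulators of this kind were low in CKO. Tbx1, a T-box factor of pharyngeal development, stood at 0.305, 0.347 and 0.585 CPM against 2.25, 3.75, 2.55 and 1.63 CPM and fell 6.11-fold (log2 fold change -2.61, SE 0.37, adjusted p = 0.00518, edgeR). Irx5, an Iroquois homeobox gene, was read at 0.0338, 0.0347 and 0 CPM in CKO, which is 2 counts in all, and between 0.0757 and 0.526 CPM in Ctrl (adjusted p = 0.0376, edgeR). Irx5 was not called when any 1 CKO library was left out, without Ctrl 1 or Ctrl 3, or with limma-voom. Lmx1b and Skor1, named after their values were seen, are further transcriptional regulators of neural development. Lmx1b was read at 0, 0.0694 and 0 CPM in CKO and between 0.467 and 0.827 CPM in Ctrl, and Skor1 at 0.237, 1.14 and 0.344 CPM against 2.65 to 4.67 CPM, with adjusted p of 0.0162 and 0.0296 (edgeR).

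Calls on the lists of developmental regulators were few in number, and their share differed by list. Of 34 neural and ectodermal regulators tested, 1 rose and 2 fell (8.82% called, against 1.7% of all genes). Their median log2 fold change was 0.01. On this list Pax6 alone was called without CKO 2, without CKO 3 or without Ctrl 3. Nfib, the member that rose, is a nuclear factor of lung and brain development and stood at 5.08, 3.68 and 7.19 CPM in CKO against 1.90, 0.949, 0.893 and 1.14 CPM in Ctrl, a difference of 4.32-fold (adjusted p = 0.0219, edgeR). Of 40 mesodermal and endodermal regulators, none rose and 1 fell (2.5% called), with a median of -0.21. None of the 12 Hox genes tested was called, and groups did not overlap in 1 of them (8.33%, against 15% of all genes). Their median was -1.22, with 9 negative and 2 positive, and the female median was 0.67. No Hox gene passed a filter of 5 CPM in 3 libraries. With no filter on low counts, 35 were tested and the median was -0.04.

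Peg3, an imprinted zinc finger gene expressed from the paternal allele, fell 2.33-fold, from 452, 444, 470 and 359 CPM in Ctrl to 219, 166 and 171 CPM in CKO. The groups did not overlap and the adjusted p was 0.00167 (log2 fold change -1.22, SE 0.14, edgeR). It was the only one called of 20 paternally expressed imprinted genes, whose median was -0.01. None of 21 maternally expressed imprinted genes was called, nor any of 15 genes imprinted through H3K27me3 in the early embryo.

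Among the 35 gene lists examined, X-linked germline families had the largest share of calls. Of 30 tested members, 9 rose and none fell (30%), and the median log2 fold change was 0.60, against 1.7% called and a median of -0.02 over all genes. Groups did not overlap in 17 of the 30 (56.7%), against 15% of all genes. The 9 were Xlr5a, Xlr5b, Xlr5c, Xlr3c, Mageb4, Nxf3, Tktl1, Rhox10 and Usp26. Some members of the Xlr, Mageb and Rhox families are near-identical copies, so reads may be shared between such copies and their counts are uncertain.

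Xlr5a stood at 9.85, 18.5 and 19 CPM in CKO and at 4.79, 1.86, 2.42 and 3.90 CPM in Ctrl, a rise of 4.84-fold (log2 fold change 2.27, SE 0.31, adjusted p = 0.00458, edgeR). Mageb4, of the melanoma antigen family, stood at 60, 89.7 and 77.3 CPM against 29.5, 44.3, 28.7 and 23.8 CPM and rose 2.40-fold. Nxf3, an RNA export factor of the testis, stood at 2.94, 4.2 and 8.7 CPM against 0.818, 0.949, 0.662 and 1.32 CPM and rose 5.63-fold. In each of these the lowest CKO value was that of CKO 1, as in 8 of the 9 called members.

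The X-linked rises were graded rather than uniform. Usp26, a testis deubiquitinase, rose only 1.64-fold, from a range of 10.6 to 13 CPM to a range of 18.5 to 21.5 CPM. Tktl1, a transketolase-like gene, rose 2.37-fold, and Rhox10, a homeobox gene of male germ cells, 2.95-fold from 1.24 to 2.45 CPM in Ctrl. Among members that were not called, Pramel3 stood at 1.96, 5.31 and 5.47 CPM in CKO and between 0.0662 and 1.32 CPM in Ctrl (log2 fold change 2.69, adjusted p = 0.0593, edgeR). Luzp4 had no count in any CKO library, against 0.350, 1.40, 0.265 and 0.606 CPM in Ctrl (adjusted p = 0.0843, edgeR). Tex11, a meiotic gene, and Mageb16 had log2 fold changes of 0.02 and -0.03.

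The count of 9 fell to 2 without CKO 2, to 2 without CKO 3, to 6 without Ctrl 4, to 4 without Ctrl 3 and to 4 in a fit of the 7 male libraries alone. Its median stayed between 0.49 and 0.78 over the 17 alternatives. On the X chromosome as a whole, 30 of 671 genes tested rose and 2 fell (4.77% called), with a median log2 fold change of 0.02. The share called on each of the other 19 numbered chromosomes lay between 0.909% and 2.32%.

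**Figure D3:**
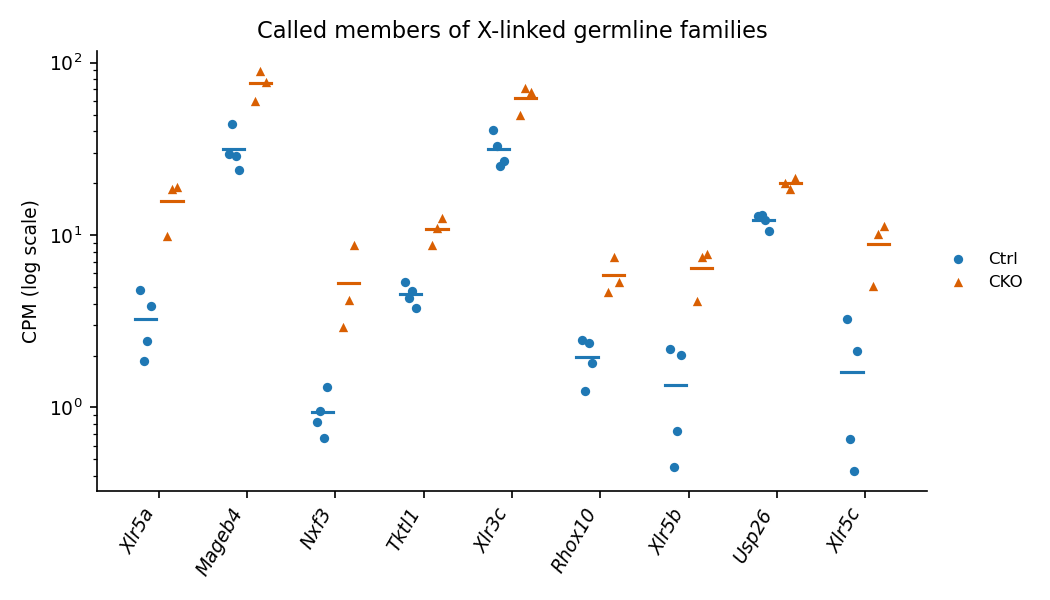
Level of the 9 called members of X-linked germline families in each male library. The y axis is CPM on a log scale, circles are the 4 Ctrl and triangles the 3 CKO libraries, and short lines are group means. All CKO values are above all Ctrl values in each gene, and the lowest CKO value is that of CKO 1 in 8 of the 9.

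Few germline genes on other chromosomes passed the test. Of 29 germline genes linked to promoter methylation, 3 rose and none fell (10.3% called, against 1.7% of all genes), with a median of 0.10. Tex101, a testis surface protein, stood at 18.7, 31.9 and 37.6 CPM in CKO against 10.5, 7.01, 8.24 and 12.2 CPM in Ctrl and rose 3.09-fold (log2 fold change 1.63, SE 0.28, adjusted p = 0.0161, edgeR). Brdt, a testis bromodomain protein, stood at 73.8, 56.6 and 45.3 CPM against 23.9, 32.6, 28.6 and 21.2 CPM and rose 2.20-fold. Tuba3a, a testis alpha-tubulin, rose 1.52-fold. Dazl and Ddx4, the general germ cell genes of this list, had log2 fold changes of 0.09 and 0.10. None of the 29 was called without CKO 2, and 1 was without CKO 3 or without Ctrl 3.

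Of 23 genes for piRNAs and transposon defence, Gtsf1 and Piwil4 rose (8.7%, against 1.7% of all genes). Neither was called without CKO 2, CKO 3, Ctrl 3 or Ctrl 4, or in the fit of the 7 male libraries alone. Piwil4, the nuclear PIWI protein of fetal male germ cells, stood at 13.7, 19.9 and 14.9 CPM in CKO and at 11.8, 5.94, 7.21 and 6.70 CPM in Ctrl (log2 fold change 1.02, SE 0.23, adjusted p = 0.0397, edgeR). Gtsf1, a small cofactor of piRNA silencing, stood at 8.26, 15.5 and 15.7 CPM against 7.5, 4.54, 3.80 and 5.26 CPM (2.48-fold, adjusted p = 0.0397, edgeR). For both, Ctrl 1 was the highest control and came close to CKO 1. Dnmt3b, a de novo DNA methyltransferase, rose 1.89-fold, from a range of 8.33 to 12.1 CPM to a range of 19.3 to 21.6 CPM (adjusted p = 0.0213, edgeR), the only call among 15 genes for DNA methylation and imprint protection.

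The meiotic and pluripotency lists gave 1 call between them. Of 36 meiotic genes only Aurkc, a meiotic Aurora kinase, was called (2.78%, against 1.7% of all genes). Aurkc was not called when any 1 CKO library or Ctrl 3 was left out, or in the fit of the 7 male libraries alone. It fell, standing at 12, 12.1 and 12.7 CPM in CKO and at 20.8, 34.9, 21.7 and 18.7 CPM in Ctrl (log2 fold change -0.97, SE 0.19, adjusted p = 0.0272, edgeR). Stra8, which starts meiosis in female germ cells, stood at 4.67, 9.74 and 5.02 CPM against 1.81, 1.07, 2.22 and 3.56 CPM, without overlap, but did not pass (log2 fold change 1.58, SE 0.38, adjusted p = 0.0586, edgeR). Sycp3, of the synaptonemal complex, had a log2 fold change of 0.32 (adjusted p = 0.473, edgeR). None of 29 pluripotency genes was called, with Pou5f1 at -0.17 and Nanog at -0.13.

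Within PRC1, 3 subunits rose and 3 fell among 33 tested (18.2% called, against 1.7% of all genes), and the median was 0.01. The falls included Cbx8 and Ring1, and the rises were Phc2, Yaf2 and Bmi1. Cbx8, a chromodomain subunit that reads H3K27me3, stood at 0.711, 0.590 and 0.447 CPM in CKO and at 2.37, 1.11, 2.71 and 2.16 CPM in Ctrl (3.58-fold lower, log2 fold change -1.84, SE 0.34, adjusted p = 0.0190, edgeR). The groups did not overlap.

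Ring1, a ubiquitin ligase of PRC1, stood at 16.2, 12.7 and 11.8 CPM in CKO and between 20.5 and 26.9 CPM in Ctrl, 1.79-fold lower. Its paralogue Rnf2, also named after its values were seen, had a log2 fold change of 0.12 (adjusted p = 0.55, edgeR). Phc2, a polyhomeotic subunit, stood at 68.2, 67.0 and 53.8 CPM against 29.6, 37.6, 36.5 and 40.5 CPM, 1.75-fold higher. Bmi1 and Yaf2, subunits of different PRC1 variants, rose 1.44-fold and 1.52-fold. No gene of this list was called without CKO 2, and 1 was called in the fit of the 7 male libraries alone.

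Of 41 genes for fatty acids and eicosanoids, 4 rose and none fell (9.76% called, against 1.7% of all genes), with a median of 0.16. Alox15, a lipoxygenase of polyunsaturated fatty acids, stood at 16.3, 10.5 and 14.3 CPM in CKO and at 2.25, 2.23, 5.19 and 1.25 CPM in Ctrl (5.01-fold, log2 fold change 2.32, SE 0.43, adjusted p = 0.0208, edgeR). Acsl4, which activates arachidonic acid, stood at 9.75, 8.98 and 6.81 CPM against 2.63, 3.34, 3.24 and 4.01 CPM and rose 2.58-fold. Acot7, an acyl-CoA thioesterase, rose 1.51-fold. Fabp5, a fatty acid binding protein, varied within CKO (22.2, 7.39 and 22.7 CPM) and stood between 2.72 and 5.98 CPM in Ctrl. On this list 1 gene was called without CKO 2 or without CKO 3, and 2 without Ctrl 3 or without Ctrl 4.

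Of 44 genes for glutathione and redox balance, Gsto1 and Gsto2 rose and none fell (4.55%, against 1.7% of all genes), with a median of 0.22. Gsto2 was not called without CKO 2 or without CKO 3. Me1, the cytosolic malic enzyme that supplies NADPH, is on none of the lists and stood at 48.7, 48.4 and 58.7 CPM in CKO against 30.6, 18.2, 22.7 and 22.7 CPM in Ctrl (2.20-fold, adjusted p = 0.00545, edgeR). Aldoc, an aldolase and the only call of 22 glycolysis genes, rose 1.89-fold. None of 28 genes of cholesterol synthesis was called, and their median was 0.04.

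Cell surface and junction genes moved in both directions. Of 36 epithelial and junction genes, 3 rose and 2 fell (13.9% called, against 1.7% of all genes), with a median of 0.31. Jam3, a junction adhesion molecule, stood at 17.8, 25.4 and 24.0 CPM in CKO and at 9.02, 5.12, 9.36 and 9.58 CPM in Ctrl (2.70-fold, adjusted p = 0.0102, edgeR). Cdh2, N-cadherin, rose 1.64-fold. The falls were Ctnnd1, which stabilises cadherins (1.41-fold), and Tjp3, of tight junctions (1.71-fold). No gene of this list was called without CKO 2 or without CKO 3, and 2 were without Ctrl 3 or without Ctrl 4.

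Krt18, the last of the rises on this list, stood at 11.3, 11.8 and 10.2 CPM against 4.70, 5.65, 6.85 and 2.91 CPM. It also marks mesonephric epithelium, whose 9 markers summed to between 549 and 614 CPM in CKO and between 494 and 563 CPM in Ctrl, mostly Epcam and Lhx1. The defining mesonephric markers Pax2 and Cdh16 stood at or near 0 in all 7 libraries, at most at 0.0993 CPM. Wfdc2 stood between 5.10 and 5.95 CPM in CKO and between 1.75 and 5.07 CPM in Ctrl. Pax8 stood at 1.62, 1.14 and 1.65 CPM in CKO and at 0.204, 1.61, 0.662 and 0.151 CPM in Ctrl, and Emx2 at most at 0.237 CPM in CKO and 0.175 CPM in Ctrl. None of these 3 was called, though their CKO values were mostly the higher ones, as for Krt18. Epcam stood at 435, 506 and 495 CPM in CKO and at 381, 433, 439 and 448 CPM in Ctrl. Lhx1 and Gata3 were mostly lower in CKO. Lhx1 stood at 94.6, 88.7 and 101 CPM against 106, 93.4, 113 and 109 CPM. Gata3 stood at 0.541, 0.485 and 0.482 CPM against 0.35, 1.11, 0.529 and 0.644 CPM. The part of mesonephric cells in the Krt18 values was not tested. Cd9, a tetraspanin, rose 1.60-fold, from a range of 67.8 to 84.2 CPM to a range of 106 to 131 CPM (adjusted p = 0.00956, edgeR).

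Changes in signalling and cell cycle genes were isolated calls. Ccnd1, cyclin D1, stood at 14.4, 15.8 and 25.5 CPM in CKO and at 5.05, 1.16, 2.91 and 2.73 CPM in Ctrl (6.17-fold, log2 fold change 2.62, SE 0.35, adjusted p = 0.00400, edgeR). It was the only call among 24 G1 cyclins and CDK inhibitors. None of 36 genes of replication and mitosis was called. Cdkn2a, which encodes p16 and ARF and is a known Polycomb target, stood at 2.50, 2.36 and 6.57 CPM against 1.52, 0.536, 0.827 and 1.55 CPM, and did not pass (adjusted p = 0.0598, edgeR).

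Among pathway genes, the Wnt antagonist Dkk1 rose 3.74-fold (2.88, 4.33 and 2.58 CPM against 0.642, 1.11, 1.09 and 0.644 CPM). Porcn, which acylates Wnt ligands for secretion, fell 2.08-fold, and these were the calls among 42 Wnt genes (4.76%, against 1.7% of all genes). No Wnt gene was called without CKO 2, CKO 3, Ctrl 3 or Ctrl 4. Tgfb1 rose 1.66-fold, the only call of 25 genes of Nodal and FGF signalling, and it was called without Ctrl 2 but not when any other of the 7 male libraries was left out. B2m, the light chain of class I histocompatibility molecules, stood at 9.95, 10.3 and 12.5 CPM against 4.73, 3.14, 2.75 and 3.41 CPM (3.10-fold, adjusted p = 0.00167, edgeR). No other one of 24 genes for viral sensing and interferon responses was called. Igfbp2, an insulin-like growth factor binding protein, rose 3.08-fold.

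No gene was called on the lists for Notch (24 genes), BMP and SMAD responses (18), receptors and guidance cues (49), apoptosis and p53 (30) or histones (16). Fabp5 was also the only call among 22 genes of the retinoic acid pathway.

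Genes of the male programme differed widely among the controls. Nanos2, an RNA-binding protein required for male germ cell fate, stood at 23.8, 0.33, 2.65 and 16.7 CPM in Ctrl 1 to Ctrl 4 and at 6.40, 8.98 and 11.0 CPM in CKO. Cdkn1c, a cell cycle inhibitor, stood at 76.4, 20.3, 37.4 and 57.2 CPM in Ctrl and at 43.1, 49.3 and 60.3 CPM in CKO. In both genes the control order was Ctrl 2, Ctrl 3, Ctrl 4, Ctrl 1 from low to high, and all CKO values lay inside the control range.

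Egr4, a zinc finger factor, and Ret, the receptor of glial-derived neurotrophic factor, named after their values were seen, had the same control order. Egr4 ran from 1.07 CPM in Ctrl 2 to 55.8 CPM in Ctrl 1 and stood between 10.4 and 13.7 CPM in CKO. Ret ran from 4.91 to 56.9 CPM in these controls and stood between 14.9 and 23.2 CPM in CKO. The X-linked homeobox genes Rhox6 and Rhox9 had the reverse order, with Rhox6 at 12.5, 144, 59.3 and 43.1 CPM in Ctrl and between 55.7 and 59.0 CPM in CKO.

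Of 29 genes on the prospermatogonial list, 2 were called (6.9%, against 1.7% of all genes). These were Rhox10 and Piwil4, both higher, and no member was called without CKO 2, CKO 3 or Ctrl 4. The median log2 fold change was -0.15, but it was 0.35 without Ctrl 1, 0.29 with limma-voom and between -0.18 and -0.10 in the other alternatives except a fit with a replicate block, so the list has no stable direction. All CKO values lay inside the control range for 14 of the 29, against 33.5% of all genes tested. Ctrl 1 was the highest control for 17 members and Ctrl 2 the lowest for 15. Dnmt3l, the cofactor of de novo methylation, stood at 0.701 CPM in Ctrl 1, at most at 0.0662 CPM in the other controls, and at 0.135, 0.694 and 0.344 CPM in CKO (adjusted p = 0.738, edgeR). Ctrl 1 also had the highest fetal Leydig and Sertoli marker sums among the controls, at 11.4 and 201 CPM, and their part in these values was not tested.

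**Figure D4:**
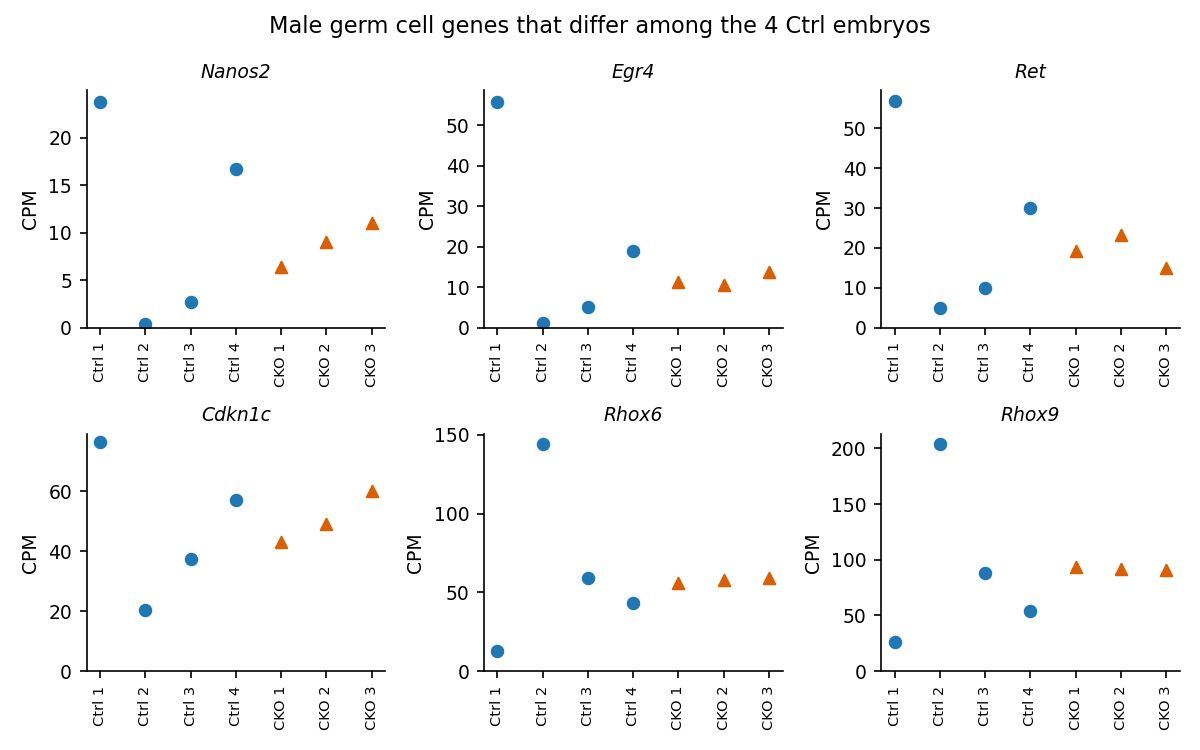
Level of 6 genes in each male library. The y axes are CPM from 0, circles are Ctrl 1 to Ctrl 4 and triangles CKO 1 to CKO 3. Nanos2, Egr4, Ret and Cdkn1c are highest in Ctrl 1 and lowest in Ctrl 2, Rhox6 and Rhox9 are the reverse, and the CKO values of all 6 genes lie inside the control range.

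Other genes that fell included Cdk5rap2, Crocc and Dync2h1. Cdk5rap2, a centrosome protein, stood at 79.5, 62.9 and 63.0 CPM in CKO and at 111, 91.3, 107 and 107 CPM in Ctrl (1.52-fold lower, adjusted p = 0.0162, edgeR). Crocc, which builds the ciliary rootlet, stood at 41.5, 36.4 and 30.7 CPM against 51.9, 54.2, 61.5 and 55.8 CPM (1.54-fold lower, adjusted p = 0.0223, edgeR). Dync2h1, the heavy chain of the ciliary dynein, stood at 12.5, 12.5 and 15.2 CPM against 28.2, 20.5, 33.8 and 30.9 CPM (2.12-fold lower, log2 fold change -1.08, SE 0.19, adjusted p = 0.0172, edgeR). Groups did not overlap in any of these. The calls of Cdk5rap2 and Crocc were each lost in 5 of the 17 alternatives, and that of Dync2h1 in 4. Cep295, C2cd3, Cplane1, Kifap3 and Wdr90, also of centrioles or cilia and named after their values were seen, fell between 1.35-fold and 1.59-fold. Of the 17 alternatives, 7 lost the call of Cplane1, 8 those of Cep295 and Wdr90, 9 that of C2cd3 and 12 that of Kifap3.

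On the list of 37 genes for cilia and intraflagellar transport, Dync2h1 alone was called (2.7%, against 1.7% of all genes tested). The number called lower was 0 without CKO 2, CKO 3 or Ctrl 3, 3 without Ctrl 2, 3 or 4 with a length or GC trend removed, and 7 with limma-voom or DESeq2. A negative log2 fold change was seen in 32 of the 37, against 8613 of all 16708 genes, and groups did not overlap in 13 (35.1%), against 15% of all genes. The median was -0.23, against -0.02 over all genes. Wdr19, a subunit of the retrograde transport complex named after its values were seen, stood at 14.0, 16.1 and 13.6 CPM in CKO and at 39.3, 20.1, 19.6 and 25.9 CPM in Ctrl (adjusted p = 0.0999, edgeR). The list's median lay between -0.29 and -0.15 over the 17 alternatives. In female germ cells the same fit gave a median of -0.11.

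Further falls at higher levels were modest in size. Rai1, a chromatin-binding factor, fell 1.69-fold, Vps13b, a lipid transfer protein of the Golgi, 1.60-fold, and Tsc2, a brake on mTORC1, 1.46-fold. Kdm5b, an H3K4 demethylase, and the Fanconi anaemia genes Fanci and Fancd2, named after their values were seen, had log2 fold changes of -0.66, -0.74 and -0.43. Kdm5b spread from 305 to 510 CPM among the controls and from 256 to 270 CPM in CKO. Fanci stood at 70.0, 69.7 and 49.3 CPM in CKO and between 95.4 and 115 CPM in Ctrl.

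Transcript length differed between the genes that rose and those that fell. The longest annotated transcript had a median of 4595 bases among genes called lower, 2776 bases among those called higher and 3149 bases over all genes tested. Transcripts over 5000 bases made up 42.7% of the lower genes, 14.3% of the higher ones and 20.5% of all. The share called lower went from 0.141% (2 of 1417) under 1000 bases to 2.01% (17 of 844) over 8000 bases. The share called higher peaked at 1.85% (52 of 2805) between 1000 and 2000 bases.

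Length also moved with single libraries. The median log2 deviation of genes over 8000 bases less that of genes under 1000 bases, each from the mean of the 7 male libraries, was 0.02, -0.13 and -0.18 in CKO 1 to CKO 3 and 0.25, -0.08, 0.16 and 0.03 in Ctrl 1 to Ctrl 4. The groups overlapped in this measure. With a length trend removed from each library, an alternative chosen after the data were seen, 278 genes were called, 167 higher and 111 lower, and 229 of the 284 were among them. The part of transcript length in the falls was otherwise not tested.

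**Figure D5:**
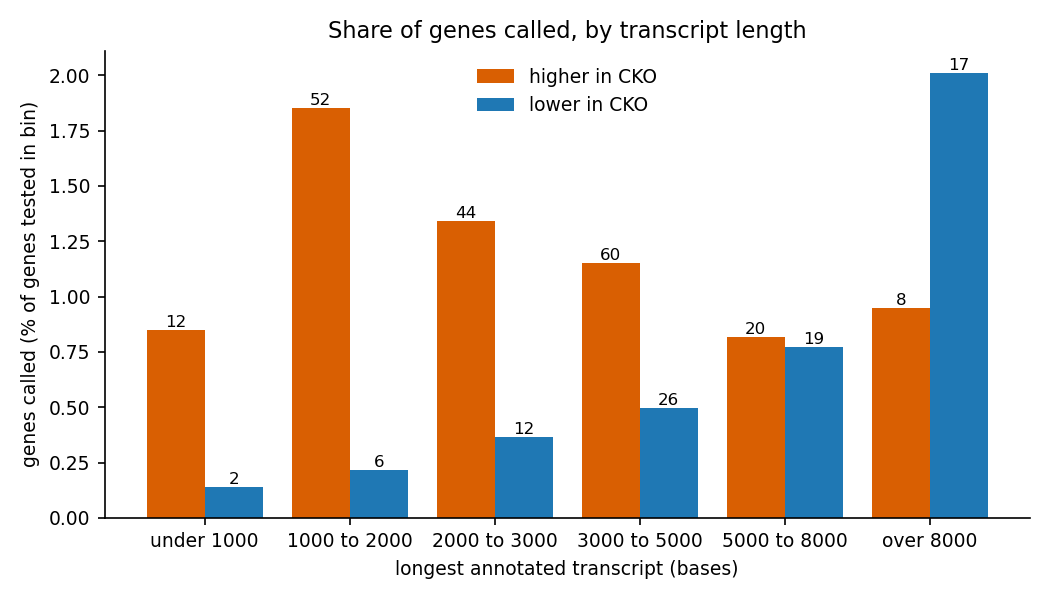
Share of genes called in male CKO germ cells, by length of the longest annotated transcript. The x axis gives bins in bases, the y axis the percent of tested genes in each bin that were called higher or lower at an adjusted p under 0.05, and figures on the bars are gene counts. The share called lower is 0.141% in the shortest bin and 2.01% in the longest.

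Called genes sometimes lay side by side. Over all genes tested, 1.7% were called, and 70.8% of the calls were higher. Of 16004 pairs of neighbouring tested genes, 18 were called in both members, and 17 of these moved in the same direction. Besides Gsto1 with Gsto2, Mageb4 with Mageb10-ps and neighbouring Xlr3 and Xlr5 copies, they included Popdc3 with Bves, membrane proteins of muscle, and Hhex with Exoc6. These last pairs are named after their values were seen. Popdc3 stood at 5.08, 6.66 and 6.61 CPM in CKO and between 2.63 and 3.44 CPM in Ctrl, and Bves at 4.23, 5.93 and 5.61 CPM against 1.49 to 2.57 CPM. Pemt and Rai1 were the pair with opposite directions. The Xlr and Mageb pairs may share reads, so their counts are uncertain. Because the libraries carry no strand information, overlapping neighbours on opposite strands cannot be told apart.

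Genes of the Y chromosome were not called in edgeR's test, but all 8 tested had a negative log2 fold change (median -0.60), against 8613 of all 16708 genes, and groups did not overlap in 5, against 15% of all genes. Ddx3y, an RNA helicase, stood at 18.4, 17.3 and 23.9 CPM in CKO and at 29.7, 31.6, 27.7 and 28.7 CPM in Ctrl (log2 fold change -0.57, SE 0.16, adjusted p = 0.111, edgeR). Eif2s3y, a translation initiation factor named after its values were seen, stood at 120, 139 and 106 CPM against 214, 139, 171 and 184 CPM. DESeq2 called 4 Y-linked genes and limma-voom 3, all lower, and the list's median stood between -0.68 and -0.53 over the 17 alternatives.

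The male changes mostly had the direction of the female ones. In the contrast of 2 female CKO with 3 female Ctrl embryos from the same fit, 195 of the 201 genes higher in males (97.0%) and 76 of the 83 lower (91.6%) had the same sign, against 65.3% of all genes tested. A call in females in the same direction was found for 105 of the 201 (52.2%) and 44 of the 83 (53%), against 6.68% of all genes. The test of the difference between the effects in the 2 sexes called no gene in edgeR (0 of 16708, lowest adjusted p = 0.155), while 1401 genes had an unadjusted p under 0.05. DESeq2 called 61 genes for this difference, limma-voom none, and edgeR without a filter on low counts called 2 genes. These were Ap3b2, with log2 fold changes of -0.35 in males and -1.38 in females, and Ipo7, with -0.19 and -1.38. A miss in this test does not show that the sexes respond alike.

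Dync1i1, a cytoplasmic dynein chain, had the smallest p for the difference among the genes called in males. It stood at 5.62, 4.68 and 4.44 CPM in male CKO and at 1.72, 1.98, 1.59 and 1.67 CPM in male Ctrl (2.82-fold, log2 fold change 1.5, SE 0.18, adjusted p = 0.00167, edgeR). Its female log2 fold change was -0.09 (SE 0.20), and the difference had an adjusted p of 0.155 in edgeR and 5.26e-05 in DESeq2. Mapk13, a stress kinase, fell in males (log2 fold change -0.49, adjusted p = 0.0272, edgeR) and had a female log2 fold change of 0.30, with an adjusted p of 0.239 for the difference. For Bmi1 the male and female log2 fold changes were 0.53 and -0.07 (difference adjusted p = 0.493, edgeR).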

How the data were processed

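Germ cells sorted from single embryos were profiled with SMART-seq V4 from 1 ng of total RNA and a NEBNext Ultra II library, per the labels' protocols, a chemistry that does not mark strand. The deposited table holds raw read counts per gene, which the authors made on mm9 (NCBIM37), with CASAVA 1.8.4, Trimmomatic 0.33, TopHat2 2.0.11 and featureCounts named in the submitters' processing notes. The handling of reads that match several places is not given in the sources used here. Of 37991 identifiers, 32938 matched GENCODE M21 and held 99.5% of the counts.

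Genes were filtered with filterByExpr (minimum count 10, minimum total 15), scaled by TMM and tested with edgeR 4.0.16 (R 4.3.3) by the quasi-likelihood test with Benjamini-Hochberg adjustment, called at an adjusted p under 0.05. All 12 libraries shared 1 estimate of the spread, and the male contrast used 7. limma 3.58.1, DESeq2 1.42.0, other scalings, filters and sample sets were alternatives.

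Genes were named by p (the 25 higher and 15 lower with the smallest p, with a proper symbol and at least 1 CPM), as called list members, or from a short fixed set. The comparison and the gene lists were chosen with earlier results of these data known.

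Some results are not reported here.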

Additional observations from a re-analysis of the deposited data

Results flagged for a closer look

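In the 4 male Ctrl libraries, 1 library lay far from the others for 4 of 98 named genes and for 3 marker sums (a gap above Dixon's critical ratio). Chance alone gives such a gap in about 1 in 20 groups.

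Ctrl 2 was low for Jam3, at 5.12 CPM against 9.02 to 9.58 CPM in the other controls. Ctrl 2 was high for Porcn, at 19 CPM against 9.46 to 10.6 CPM, and low for the summed germ cell markers, at 6030 CPM against 6620 to 6670 CPM. Ctrl 4 was low for Cdh2, at 11.7 CPM against 15.2 to 15.9 CPM. Ctrl 1 was high for Dnmt3l, at 0.701 CPM against 0 to 0.0662 CPM. Ctrl 1 was also high for the summed Sertoli markers, at 201 CPM against 176 to 180 CPM, and for the summed fetal Leydig markers, at 11.4 CPM against 2.43 to 3.94 CPM.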

How the results depend on the processing

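The 284 genes called became 63 with only the 7 male libraries, 1098 with limma-voom and 990 with DESeq2. The cause was not tested. The fit of the male libraries alone changed the filter (14942 genes tested, against 16708), the scaling and the estimate of spread together. Leaving out 1 library gave 36 to 502 genes: the lowest came without CKO 2 and the highest without Ctrl 2, while dropping CKO 3 gave 48, dropping Ctrl 3 gave 85 and dropping Ctrl 4 gave 151. The share called higher was 70.8% and became 56.1% with limma-voom, 58.5% with DESeq2, 51.6% without CKO 1, 60.1% with a length trend removed, 58.4% with a GC trend removed, 82.5% with only male libraries, 87.5% without CKO 3 and 85.9% without Ctrl 3. Both trends were chosen after the data were seen.

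Ezh2 kept its sign in all 17 alternatives. It passed the threshold without a low-count filter (-0.51, adjusted p = 0.0295, edgeR), with a filter of 5 CPM (-0.50, 0.0485), with limma-voom (-0.57, 0.00825), with DESeq2 (-0.52, 0.00656), and with a length (-0.59, 0.0474) or GC trend removed (-0.61, 0.0342). Leaving out 1 library gave -0.63 to -0.44, past the threshold only without Ctrl 1. The difference between the sexes was called for 0 genes, or for 2 without a filter and 61 with DESeq2, and for 0 in each run that left out 1 male library.

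Replicate numbers do not pair the samples (correlations of deviations -0.00171, 0.0194 and 0.0101 over 13028 genes). With the replicate number as a block, 17 genes were called, and Ezh2 stood at -0.53 (adjusted p = 0.162, edgeR). The median of the 29 prospermatogonial genes turned from -0.15 to 0.21 with this block. Of 77 named called genes, 12 were called under every alternative, and no named gene reversed its direction.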

Other observations

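Called genes differed in base composition. The median GC content of the longest annotated transcript was 47.9% among the 201 higher genes, 52.9% among the 83 lower genes and 49.8% over all genes tested. Of 48 unprocessed pseudogenes tested, 4 were higher and 2 lower (12.5% called, against 1.7% of all genes). Of 33 transcribed unprocessed pseudogenes, none was higher and 4 were lower (12.1%). None of 476 processed or 48 transcribed processed pseudogenes was called. Such copies share reads with their parent genes, so these counts are uncertain. Among the 30 X-linked genes called higher, CKO 1 was the lowest CKO library for 20, against 88 of the 171 other genes called higher.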
